A study of Mus musculus with 38 samples.

Results

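Integrins, cadherins and claudins were followed across 38 Illumina bead arrays of mouse tumor microenvironment and control tissue, together with protocadherins, the Icam, Vcam and Pecam molecules and the junctional adhesion molecules. Genes were taken by the start of their symbol, namely Itga, Itgb, Cdh with a digit, Pcdh, Cldn, Icam, Vcam, Pecam and Jam, and the brightest probe stood for each gene. The rule gave 54 of the 9890 genes tested: 13 integrin alpha chains, 6 integrin beta chains, 7 cadherins, 6 protocadherins, 11 claudins, 6 molecules of the immunoglobulin family, and 5 genes that share only the prefix of the name (Itgb1bp1, Itgb1bp2, Itgb3bp, Itgbl1 and Cldnd1). All tissue came from C57BL/6 mice aged 8 weeks. The tumor groups were the microenvironment of B16-WT at day 4 (4 arrays) and day 14 (5 arrays) after tumor cells were given, of B16-shTGFb at day 4 (6 arrays) and day 14 (5 arrays), and of B16-shVEGF at day 4 (5 arrays) and day 14 (6 arrays), and 7 arrays held control tissue. B16 is a mouse melanoma line of C57BL/6 origin. The prefix sh usually denotes a short hairpin RNA, here by name against TGFb or VEGF. No line with a control hairpin is among the labels, and the site of inoculation is not given in the sources used here. Arrays are called by the code in their titles, in which D4 and D14 give the day, T marks shTGFb, V marks shVEGF and CTRL marks control.

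Integrins are paired alpha and beta chains that hold cells to laminin, collagen and fibronectin or, on leukocytes, to molecules of the immunoglobulin family on other cells. Classical cadherins join like cells at adherens junctions through catenins, and claudins form the strands of tight junctions that seal epithelia and vessels. In skin, keratinocytes rest on laminin through the Itga6 and Itgb4 pair and adhere to each other through Cdh1 and Cdh3, whereas Cdh5, Cldn5 and Pecam1 mark endothelial contacts.

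Per array, 16519 to 22897 probes were detected at a detection p under 0.05 against the array's negative controls, and levels are given as log2 intensity, corrected for background and then quantile-normalized. Arrays D4-4, D14-2 and D14-5, all labelled B16-WT, stood apart. The fibroblast gene Dcn was at 4.38 to 4.86 and undetected on these 3 arrays, against 12.33 to 14.45 on the other 35. Krt14 of keratinocytes was at 4.47 to 6.38 on the 3 and 9.99 to 14.62 on the others, and Myl1 of skeletal muscle at 4.71 to 5.73 on the 3 and 10.65 to 14.73 on the others. The pigment gene Dct was at 13.92 to 14.37 on the 3 and had a median of 14.09 on the other 35. Pigment genes did not mark tumor groups alone: Mlana was detected on 6 of 7 control arrays, with a median of 12.74. The 3 arrays were picked in an earlier look at these data for low collagen and host tissue genes, so levels on them are described without a test. Because whole tissue was measured, fewer cells of a type and less RNA per cell cannot be told apart. The labels do not state that each array had its own mouse, and the spread behind every p-value may therefore be technical.

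A larger share of the adhesion genes than of all genes was undetected on the 3 arrays with little host tissue. Of the 54 genes, 21 (38.9%) were detected on all 3 arrays, against 75.7% of the 9890 genes tested, and 24 (44.4%) on none, against 16.8% of all genes. The other 9 were detected on some of the 3. At a stricter detection p under 0.01, the counts were 18 on all 3, 8 on some and 28 on none: Icam1, Itga1 and Pcdh1 were then detected on some of the 3, and Cdh5, Cldn15, Itga2b and Itga4 on none. In 20 genes (37.0%, against 14.5% of all genes) all 3 arrays lay below the lowest of the other 35, and in 2 genes (3.7%, against 8.95% of all genes) all 3 lay above the highest. The median over genes of the gap between array medians, the other 35 minus the 3, was 1.55 for the adhesion genes and -0.17 for all genes tested. On the 35 other arrays, 36 of the 54 genes (66.7%) were detected throughout, against 77.7% of all genes. By family, all 3 arrays detected 5 of 13 integrin alpha chains, 3 of 6 beta chains, 2 of 7 cadherins, 3 of 6 protocadherins, 4 of 11 claudins and 1 of 6 molecules of the immunoglobulin family.

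Of the integrin chains that bind matrix, those that stayed on included both chains of the fibronectin receptor and the partner chain of vitronectin receptors. Itgb1, the common partner of collagen, laminin and fibronectin receptors, was at 8.41, 8.80 and 8.30 on D4-4, D14-2 and D14-5, against 4.68 to 9.43 with a median of 8.35 on the other 35. Itga5, which pairs with Itgb1 to bind fibronectin, was at 9.04, 9.18 and 8.62 on the 3 and 7.83 to 10.01 on the others. Itgb5, which pairs with Itgav, was at 9.66, 9.65 and 9.39 on the 3 and at 7.25 to 10.26, median 9.13, on the others. The 3 arrays thus sat inside the range of the other 35 for each of these chains. The same held for Itga6, a laminin receptor chain, at 7.24, 7.72 and 7.37 on the 3 and a median of 6.77 on the others, for Itga9 at 9.21, 7.88 and 7.88 on the 3 and a median of 7.89 on the others, and for Itga1, a collagen receptor chain, at 6.38, 6.36 and 6.02 on the 3 and a median of 6.66 on the others. Itgb4, the hemidesmosomal partner of Itga6, was detected on the 3 arrays at 7.43, 7.31 and 7.97, all below the 8.24 to 12.36 of the other 35. By the brightest probes, Itga6 thus lay within the range and Itgb4 under it. The other 2 probes of Itga6, with r of 0.65 and 0.73 to the brightest, were detected on 1 and 0 of the 3 arrays, so detection of Itga6 there depends on the probe.

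Other matrix and leukocyte integrins were undetected. Itga11, the fibrillar collagen receptor of fibroblasts, was undetected on the 3 at 4.45, 4.57 and 4.68, against 6.45 to 11.42 on the other 35, all detected. Itga7, a laminin receptor of muscle, was undetected on the 3 at 4.49, 5.23 and 4.45, against a median of 7.54 on the others, where D4-V5 was low too at 4.43. Itgb6, an epithelial partner of Itgav, was undetected at 4.84, 4.93 and 4.89 on the 3, against 5.54 to 9.45 on the others. Leukocyte chains were undetected as well. Itgb7 was at 4.68, 4.41 and 4.54 on the 3 and 6.64 to 10.66 on the others, Itgam of myeloid cells at 4.48, 5.00 and 4.39 on the 3 and 4.97 to 7.42 on the others, and its partner Itgb2 at 4.54, 5.22 and 4.53 on the 3 and 4.84 to 6.61 on the others, with none of them detected on the 3. Itgae, which pairs with Itgb7 on lymphocytes inside epithelia and binds Cdh1, was still detected at 6.99, 6.70 and 6.94 on the 3, at or below the low end of the 6.80 to 9.90 of the others. Itga3, Itgal, Itga2b, Itga4 and Itgav were detected on some of the 3 only. Itgal, which pairs with Itgb2 on lymphocytes, was at 5.00, 6.34 and 5.77 on the 3 and detected on D14-2 alone, against 5.37 to 9.38 on the others. Itga3, a laminin receptor chain, was at 7.00, 6.18 and 5.83 on the 3 and detected on D4-4 and D14-2, against 6.39 to 10.83 on the others. Itgav was at 6.28, 5.39 and 4.86 on the 3, detected on D4-4 alone, and was detected on 25 of the other 35 at 4.49 to 5.96. Itga4, the fibronectin and Vcam1 receptor chain, was close to background on most arrays, with 23 of the other 35 detected at 4.54 to 7.10.

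Among cadherins, the epithelial and vascular members were at or under the limit of detection on the 3 arrays. Cdh1, E-cadherin, was at 5.39, 6.33 and 5.37 on D4-4, D14-2 and D14-5, detected on D14-2 alone, against 6.84 to 11.12 on the other 35. Cdh3, P-cadherin, was undetected at 4.44, 4.55 and 4.64 on the 3, against 5.43 to 9.62 on the others. Cdh5, VE-cadherin, was at 5.61, 5.84 and 5.83 on the 3, detected on D14-2 alone, against 7.53 to 9.83 on the others. In these 3 cadherins the arrays did not overlap with the other 35. Cdh4, R-cadherin, was undetected at 4.45, 4.55 and 5.15 on the 3, against 4.83 to 10.50, median 8.68, on the others. Cdh13, T-cadherin, which is anchored in the membrane by a lipid, stayed on at 9.31, 7.71 and 7.68 on the 3 and 7.34 to 10.10 on the others. Cdh19 also stayed on at 7.53, 7.45 and 7.92 on the 3, above the median of 6.14 on the others and inside their range of 4.82 to 9.18. Cdh15, the M-cadherin of muscle precursors, was undetected on the 3 and detected on 24 of the other 35.

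Protocadherins, which bind like molecules without classical catenin contacts, split evenly. Pcdh17 was at 8.93, 8.78 and 7.25 on the 3, against 4.86 to 8.07 on the other 35, so that D4-4 and D14-2 were higher than any other array. Pcdh7 was at 8.62, 8.65 and 9.04 on the 3 and 7.37 to 10.87 on the others, and Pcdh1 at 6.69, 7.16 and 6.11 on the 3 and 7.05 to 10.86 on the others. Pcdh19 was undetected on the 3 at 4.40, 4.33 and 4.44, against 5.07 to 8.26 on the others. Pcdhb22, a member of the clustered protocadherins, was undetected on the 3 at 5.53, 5.29 and 5.83, although the other 35, all detected, spanned 5.15 to 6.90. It thus differed in the detection call and not in a level outside the range. Pcdh20 was undetected on the 3 and detected on 28 of the other 35.

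The claudins of barrier epithelium had the largest gaps between medians of all 54 genes. Cldn1, the claudin of the epidermal barrier, was undetected at 5.24, 4.36 and 5.09 on the 3, against 6.31 to 12.18, median 11.14, on the other 35. Cldn4 was undetected at 4.56, 4.76 and 4.47 on the 3, against 7.51 to 12.42, median 10.39, on the others. Cldn23 was undetected at 4.94, 4.70 and 4.41 on the 3, against 5.44 to 10.84, median 9.87, on the others. None of the 3 arrays reached the lowest other array in any of these genes. Cldn10, which forms ion channels between cells, was at 4.43, 4.66 and 4.38 on the 3 and 7.66 to 10.93 on the others, Cldn5 of endothelium at 4.70, 4.65 and 4.61 on the 3 and 6.49 to 9.67 on the others, and Cldn11, known from myelin and testis, at 4.43, 4.43 and 4.32 on the 3 and 4.59 to 9.54 on the others. Those 3 genes were undetected on all 3 arrays. Cldn15 was detected on D4-4 alone.

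Another set of claudins was as high as elsewhere or higher. Cldn12 was at 9.62, 10.74 and 9.90 on the 3, against 7.75 to 9.85, median 8.71, on the other 35. Cldn9 was at 7.06, 7.31 and 7.08 on the 3, above the 5.93 to 6.91 of the others. Cldn7 was at 6.49, 6.71 and 7.11 on the 3 and 5.42 to 6.86 on the others, and Cldn34c1 at 7.79, 7.40 and 7.60 on the 3 and 5.00 to 7.70 on the others. In each of these 4 claudins all 3 arrays were above the median of the other 35.

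Of the immunoglobulin family, Icam1 alone was detected on all 3 arrays at a detection p under 0.05, and no member at a detection p under 0.01. Icam1, the ligand of the Itgal and Itgb2 pair, was at 6.06, 6.11 and 6.71 on the 3, against 8.62 to 10.82 on the other 35, without overlap. Vcam1, the ligand of the Itga4 and Itgb1 pair, was undetected at 4.54, 4.59 and 4.78 on the 3, against 7.33 to 11.61 on the others. Pecam1 was undetected at 4.87, 4.58 and 4.45 on the 3, against 8.00 to 11.08 on the others. These 3 genes had the same order of arrays in that every one of the other 35 was above all 3. Icam2 was detected on D4-4 and D14-2 at 7.80 and 7.19, while D14-5 was undetected at 5.57, against a lowest value of 7.01 and a median of 8.13 on the others. Jam2 was undetected at 4.71, 4.56 and 4.39 on the 3 and detected on 31 of the other 35, and Jaml, a leukocyte molecule that binds the coxsackievirus and adenovirus receptor, was undetected at 4.37, 4.77 and 4.58 on the 3, against 5.95 to 9.08 on the others. Among the genes that share only the prefix, Itgb3bp, which encodes a centromere protein, was at 10.19, 10.32 and 10.52 on the 3, above the 7.00 to 10.13 of the others. Itgb1bp1, whose product binds the Itgb1 tail, was at 11.06, 10.94 and 11.10 on the 3, with a median of 10.20 on the others, and Cldnd1 was at 9.29, 9.33 and 9.24 on the 3, with a median of 9.01 on the others. Itgbl1 was undetected at 4.48, 4.39 and 4.52 on the 3, against 5.97 to 10.32 on the others. Itgb1bp2, the muscle protein melusin, was undetected at 4.70, 4.40 and 4.82 on the 3, against 4.77 to 9.18 on the others.

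**Figure D1:**
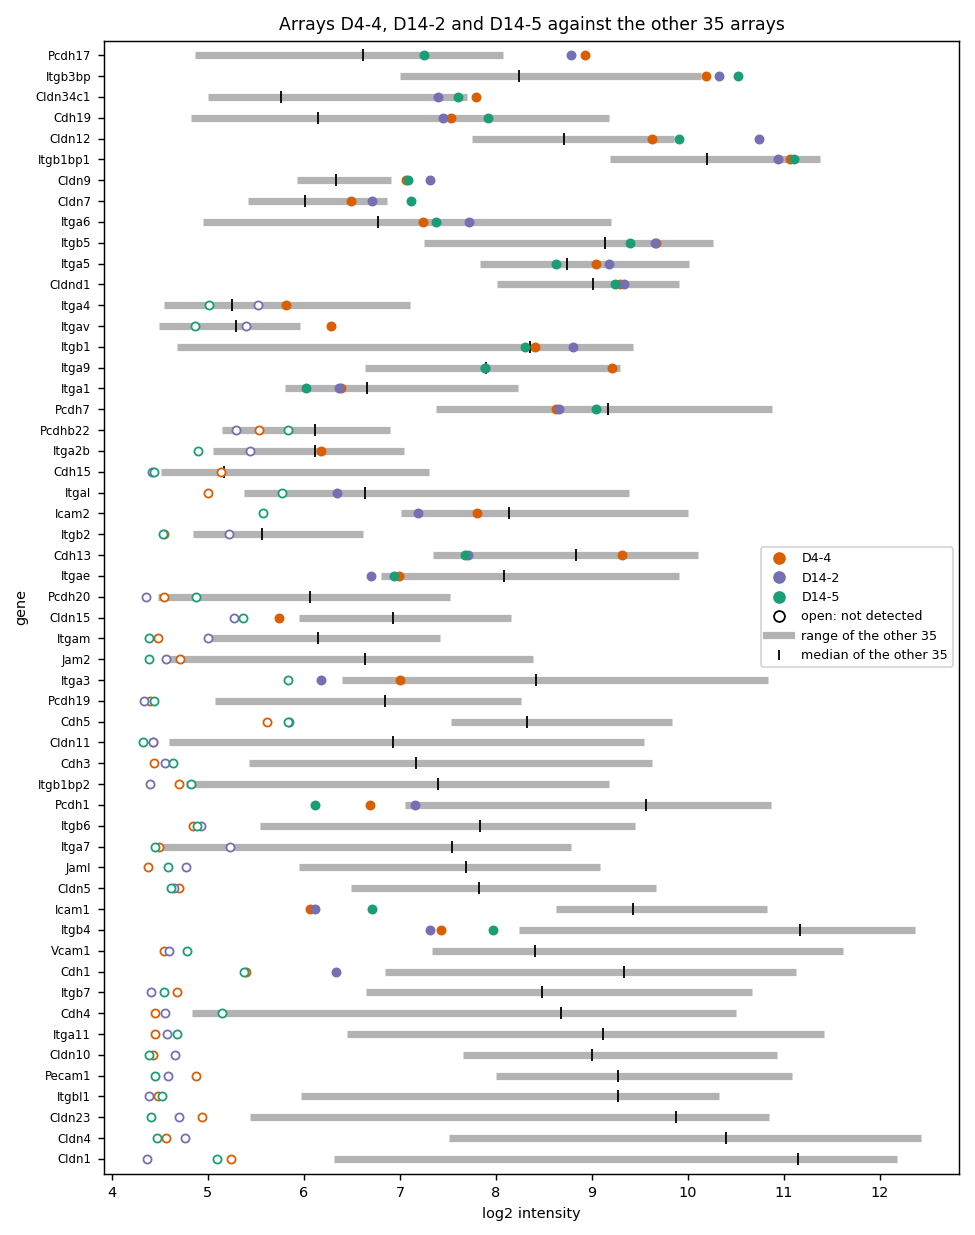
Log2 intensity (x axis) of the 54 adhesion genes (y axis, sorted by the difference between medians) on arrays D4-4, D14-2 and D14-5 (coloured points, open where not detected), with the range (grey bar) and median (tick) of the other 35 arrays. Itgb3bp and Cldn9 lie above the bar on all 3 arrays, and the points of 20 genes, Cldn1 and Cldn4 among them, lie left of their bar on all 3.

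Promoters of a pair of undetected claudins and a pair of detected genes are shown. Cldn1 and Cldn4 had the largest gaps between medians, Pcdh17 stood at the other end of the order, and Itgb5 was a detected matrix receptor chain whose level was within the range of the other 35. The windows run from 250 bases before to 50 bases after an annotated start and come from RefSeq on GRCm38.p6. There 33 of the 54 genes had an entry, with 39 windows. Some genes have several windows, and some windows, such as that of Itga9, lie inside the gene. Capitals mark the motifs GGGCGG (a GC box), CAGGTG (a box that zinc finger repressors of epithelial genes can bind) and their reverse complements. Cldn1 lies on the minus strand of chromosome 16 at chr16:26371790-26372089, Cldn4 on the minus strand of chromosome 5 at chr5:134946885-134947184, Itgb5 on the plus strand at chr16:33829415-33829714 and Pcdh17 on the plus strand at chr14:84443313-84443612.
Cldn1: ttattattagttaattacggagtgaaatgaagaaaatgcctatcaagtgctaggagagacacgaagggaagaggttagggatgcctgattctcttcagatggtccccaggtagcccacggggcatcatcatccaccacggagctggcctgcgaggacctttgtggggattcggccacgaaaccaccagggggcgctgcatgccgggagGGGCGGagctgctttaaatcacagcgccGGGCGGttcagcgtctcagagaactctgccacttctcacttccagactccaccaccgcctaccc
Cldn4: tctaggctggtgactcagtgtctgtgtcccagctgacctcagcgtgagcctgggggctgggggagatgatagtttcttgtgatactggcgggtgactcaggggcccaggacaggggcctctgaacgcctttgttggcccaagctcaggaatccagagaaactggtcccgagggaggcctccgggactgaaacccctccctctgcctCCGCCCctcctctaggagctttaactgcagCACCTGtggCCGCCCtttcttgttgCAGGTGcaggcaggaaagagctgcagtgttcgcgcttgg
Itgb5: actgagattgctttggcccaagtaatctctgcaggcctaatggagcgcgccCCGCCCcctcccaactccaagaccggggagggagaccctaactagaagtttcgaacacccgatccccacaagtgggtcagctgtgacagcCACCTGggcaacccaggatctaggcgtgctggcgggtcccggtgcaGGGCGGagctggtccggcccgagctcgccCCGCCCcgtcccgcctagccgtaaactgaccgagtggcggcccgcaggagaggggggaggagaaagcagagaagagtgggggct
Pcdh17: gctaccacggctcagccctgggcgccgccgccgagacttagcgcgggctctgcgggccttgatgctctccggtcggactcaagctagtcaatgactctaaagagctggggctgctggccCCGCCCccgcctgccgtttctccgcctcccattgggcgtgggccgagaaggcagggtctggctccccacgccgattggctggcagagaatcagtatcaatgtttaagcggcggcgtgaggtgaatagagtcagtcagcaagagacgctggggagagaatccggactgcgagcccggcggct

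Cldn4 held CAGGTG at positions -14 and 11 from the start, Itgb5 held it at -109, and it was in neither of the windows of Cldn1 and Pcdh17. Over both strands, CAGGTG was in 9 of the 39 windows of adhesion genes (23.1%) and in 20.2% of all 32851 promoters of the table. GGGCGG was in 23 of the 39 windows (59.0%) and in 35.7% of all promoters. All the windows shown held it, at -42 and -14 in Cldn1, -44 and -5 in Cldn4, -199, -63 and -34 in Itgb5 and -131 in Pcdh17. CATGTG and CACGTG, E-boxes that the melanocyte factor MITF can bind, were in 7 windows (17.9%) and 1 window (2.56%), against 14.2% and 7.15% of all promoters. By detection, GGGCGG was in 9 of 17 windows of genes on all 3 arrays and 9 of 16 windows of genes on none, and CAGGTG in 5 of 17 and 3 of 16. CATGTG was in 1 of 17 windows of genes on all 3 arrays and in 5 of 16 of genes on none. Windows of the same gene were counted separately, so these are not counts of genes. Both windows of Itgb6 hold CATGTG, and those of Cldn12 overlap. These matches describe letters in a window and were not tested.

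Over the 35 other arrays, the adhesion genes varied mostly within the labelled groups. The SD over these arrays had a median of 0.75 over the 54 genes, and labelled group accounted for a median of 11.7% of the variance. Group means take up some variance even where groups do not differ, so this share alone shows no effect of group. It was not computed for all genes. Cdh4, Cldn23 and Cldn1 spread most and Cldn9, Cldn7 and Itgav least. Single arrays set many of the extremes. D4-T2, of B16-shTGFb at day 4, was highest for Vcam1 (11.61), Pecam1 (11.08), Itgb7 (10.66), Itgal (9.38), Icam1 (10.82), Cdh5 (9.83) and Cldn5 (9.67). On the same array the mean of the T cell list was 10.06, against 6.26 to 8.41 on the other 34 of these arrays, and Cd79b of B cells was at 12.65. D4-V4, of B16-shVEGF at day 4, was lowest of the 35 for Cdh1 (6.84), Cldn1 (6.31), Cldn4 (7.51), Cldn23 (5.44) and Itga3 (6.39), and highest for Itga11 (11.42), Itgam (7.42) and Itgb2 (6.61). Its keratinocyte list mean was 6.07, the lowest of the 35, and its macrophage list mean 11.25, the highest. D14-V2 and D4-V2, both of B16-shVEGF, were the pair of highest arrays for Itgb4 (12.28 and 12.36), Cdh1 (11.12 and 10.60), Itga3 (10.49 and 10.83) and Itga6 (9.20 and 9.11). Their keratinocyte list means were 12.94 and 13.17. The part of these lists in the levels was not tested.

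**Figure D2:**
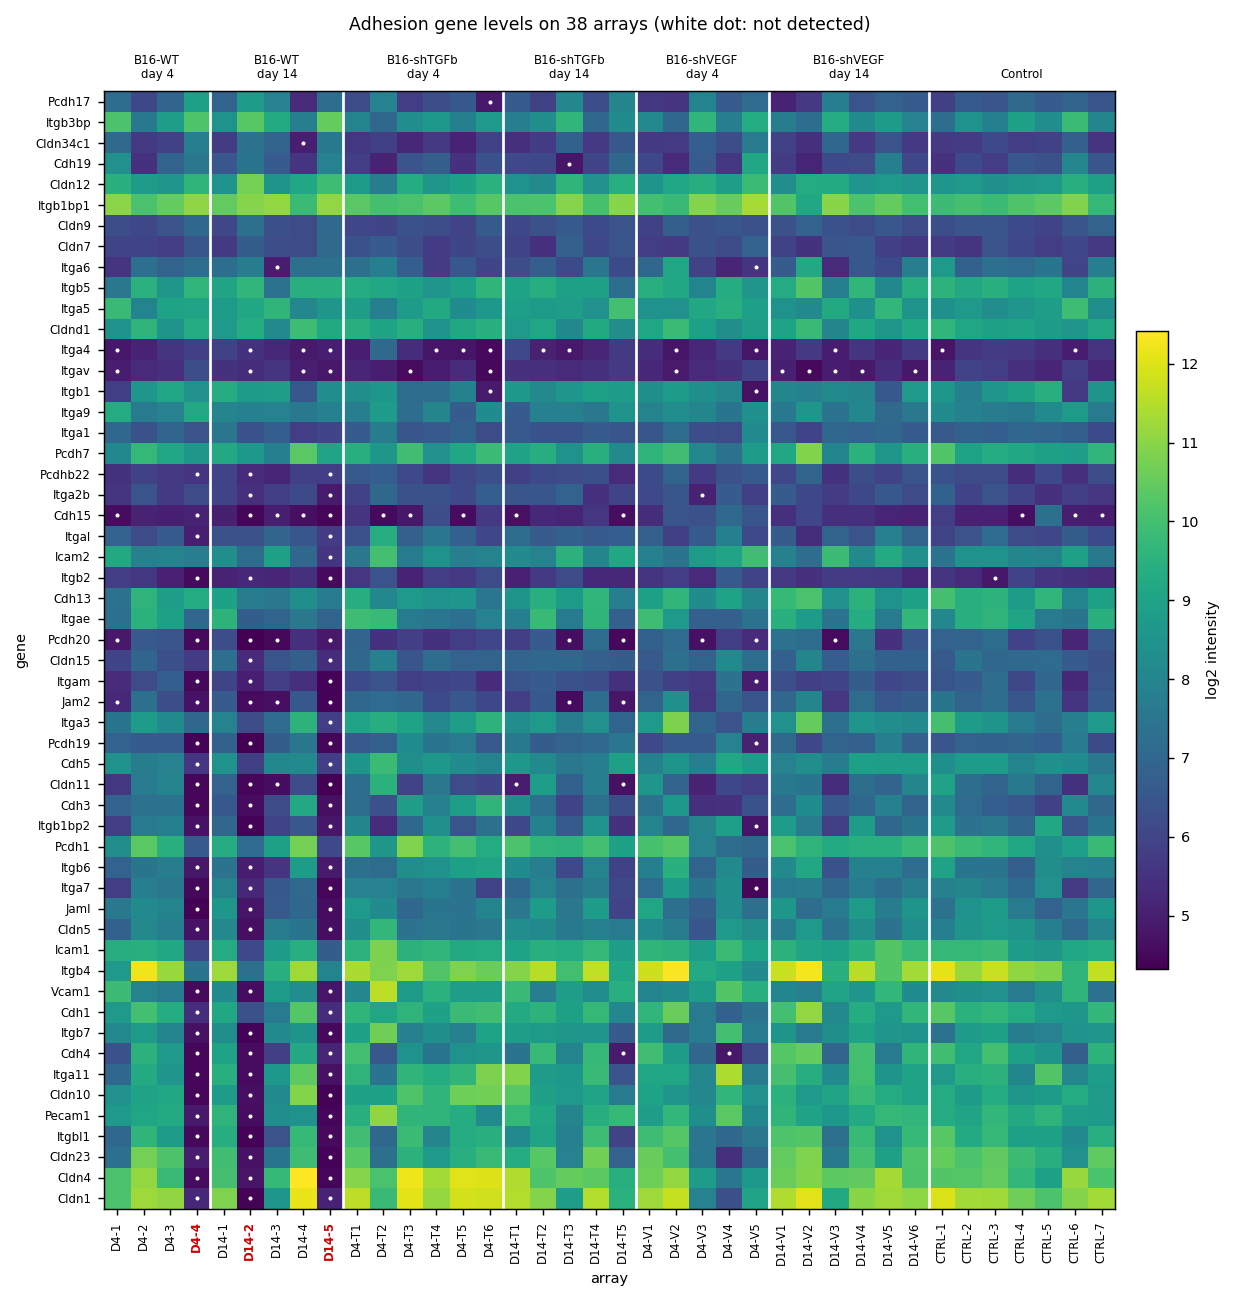
Log2 intensity (colour) of the 54 adhesion genes (rows, in the same order as the plot of the 3 arrays) on 38 arrays (columns, by labelled group), with white dots where a gene was not detected. The columns of D4-4, D14-2 and D14-5, labelled in red, are dark for the lower rows, from Cldn1 at the foot, and bright for Itgb3bp and Itgb1bp1 near the top.

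The comparison of tumor tissue with control tissue asked which adhesion genes differ in the microenvironment of each line. At a limma adjusted p under 0.05 (Benjamini-Hochberg over all genes), 0 of 9890 genes (0%) were called in any of the 15 comparisons. An F test over the 7 groups also called 0 (0%), so none of the 54 genes was called. With few arrays per group this does not show that levels were unchanged, and calls depended on array weights and single arrays, as given below. At an unadjusted p under 0.05 the F test passed 634 genes (6.41%), 6 of them adhesion genes: Cdh15, Cldn15, Pecam1, Itgav, Jam2 and Icam1. Of these, Cdh15 had the smallest p in the limma F test across genes (F = 4.08, unadjusted p = 0.00352, adjusted p = 0.637).

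B16-WT tissue at day 14 had lower means than control tissue for most adhesion genes. At an unadjusted limma p under 0.05, 21 of the 54 were lower and 1, Cldn7, higher in B16-WT at day 14, where 16.7% of all genes were lower and 8.31% higher. The median log2 difference over the 54 was -0.91, with 12 above 0 and 42 below, against a median of 0.04 over all genes and 52.2% of them above 0. Cldn1 was at 10.85, 4.36, 8.58, 12.18 and 5.09 on arrays D14-1 to D14-5, against 10.13 to 11.99 with a median of 11.27 on 7 control arrays. D14-2 and D14-5 were far below every control array and D14-4 was above all of them, so the groups overlapped. The difference for Cldn1 was -2.86 ± 1.05 (SE, 95% interval -5.00 to -0.73, limma adjusted p = 0.143, n = 5 and 7). The next largest negative differences were those of Cldn23 (-2.60 ± 0.99) and Itgbl1 (-2.38 ± 0.88), each with an adjusted p of 0.143 in limma. The largest positive ones were Itgb3bp (0.90 ± 0.54, adjusted p = 0.271), Pcdh17 (0.66 ± 0.55, adjusted p = 0.419) and Cldn12 (0.60 ± 0.34, adjusted p = 0.249). Pecam1 was at 9.60, 4.58, 8.28, 8.46 and 4.45 in B16-WT at day 14, against 8.73 to 9.68 in control tissue, where again D14-2 and D14-5 were lowest.

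The size of these differences rested largely on arrays D14-2 and D14-5. Without D4-4, D14-2 and D14-5, 0 of the 54 genes passed an unadjusted p under 0.05 in limma for B16-WT at day 14 against control (0.799% of all genes did), and the median difference was -0.16. Most differences stayed negative, with 15 of the 54 above 0 and 39 below. Shares of all genes above 0 without the 3 arrays are not given here. Cldn1 then differed by -0.54 ± 0.82, Cldn23 by -0.78 ± 0.93, Pecam1 by -0.42 ± 0.45 and Itgb3bp by 0.13 ± 0.59. Cldn12 changed its sign to -0.05 ± 0.34. At day 4, B16-WT against control had a median difference of -0.58 (11 above 0 and 43 below, against 54.6% of all genes above 0) with all arrays and of -0.16 (19 above 0 and 35 below) without the 3. No adhesion gene passed an unadjusted p under 0.05 there (0.829% of all genes were higher and 1.15% lower). Itgbl1 (-1.80 ± 0.94), Cdh4 (-1.72 ± 1.04) and Cldn1 (-1.66 ± 1.12) had the largest negative differences and Itgb3bp (0.82 ± 0.57), Pcdh17 (0.72 ± 0.59) and Cldn34c1 (0.69 ± 0.43) the largest positive ones, each with a limma adjusted p of 0.725.

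Genes that work with these receptors and junctions were counted in the same way for B16-WT at day 14 against control, with 0 called in limma in every list and 16.7% of all genes lower at an unadjusted p under 0.05. Of 14 measured integrin ligands, 11 were lower at an unadjusted p under 0.05 and the median difference was -1.31, with Col1a1 at -3.66 ± 1.28 and Lamb3 of epidermal laminin at -2.72 ± 0.93. Of 18 intracellular integrin adaptors, 4 were lower and 1 higher, with a median of -0.15, and Fermt1, the kindlin of keratinocytes, at -2.11 ± 0.80 and Tns1 at -1.70 ± 0.66. Among 10 desmosome genes 6 were lower (median -1.85), with Ppl at -3.39 ± 1.23 and Pkp1 at -3.15 ± 1.12. Among 4 hemidesmosome genes 3 were lower (median -2.30), with Col17a1 at -3.65 ± 1.27 and Dst at -3.08 ± 1.19. Tight junction partners had 4 of 8 lower (median -1.04), with Esam at -2.52 ± 0.83 and Cxadr at -1.71 ± 0.82, and catenins and other cadherin partners 1 of 9 (median -0.23), a share below that of all genes, with Jup at -1.45 ± 0.63 and Nectin2 at 0.38 ± 0.22. Marker lists had lower means beside them: 14 of 17 keratinocyte genes (median -3.29), 16 of 19 fibroblast genes (median -2.57) and 11 of 14 blood endothelial genes (median -1.55) were lower at an unadjusted p under 0.05. On the 3 arrays the keratinocyte list mean was 4.67 to 5.16, against 6.07 to 13.17 on the other 35, and the fibroblast list mean 5.69 to 5.87, against 9.46 to 11.80. Their part in the results on adhesion genes was not tested. All these counts include D14-2 and D14-5, which were picked for low collagen and host tissue genes. Low values in lists of such genes are therefore no separate support. The lists also share genes. Col1a1 and Col1a2 are both ligand and fibroblast genes, and Esam is in the tight junction and blood endothelial lists. Pkp1 and Dsc3 are in the desmosome and keratinocyte lists.

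**Figure D3:**
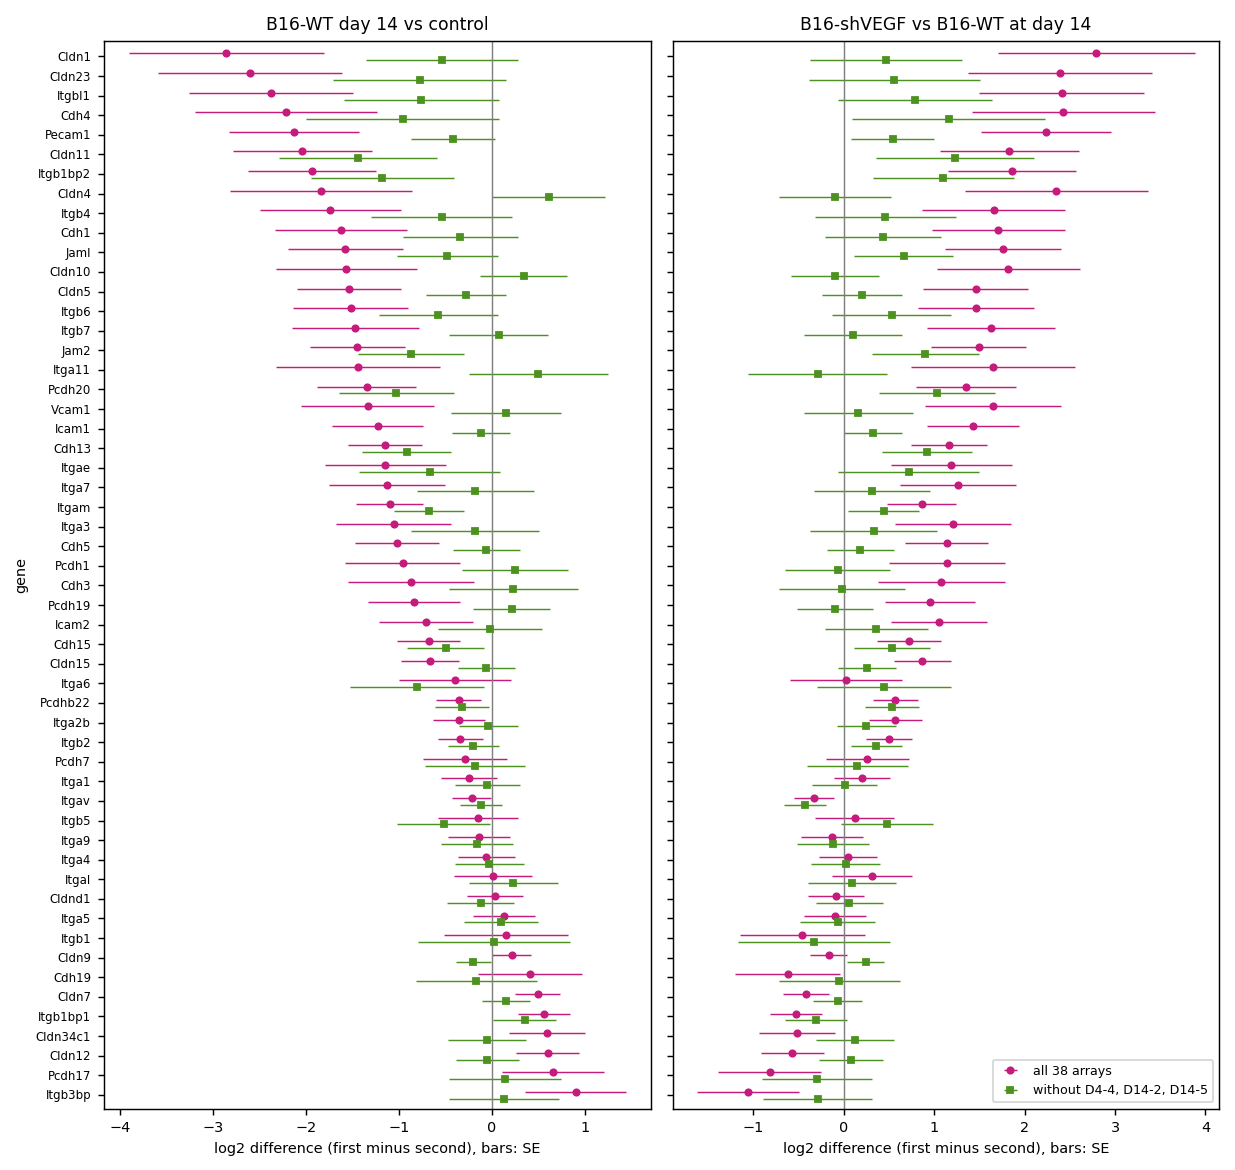
Log2 differences (x axis, points with SE bars) of the 54 adhesion genes (y axis) for B16-WT day 14 minus control (left) and B16-shVEGF minus B16-WT at day 14 (right), over all 38 arrays (circles) and without D4-4, D14-2 and D14-5 (squares). Cldn1 is at -2.86 and 2.79 over all arrays and at -0.54 and 0.47 without the 3.

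Tissue of the shVEGF and shTGFb lines was set against B16-WT tissue of the same day. For B16-shVEGF against B16-WT at day 14, 25 of the 54 genes were higher and 0 lower at an unadjusted limma p under 0.05, where 16.6% of all genes were higher and 9.16% lower, and the median difference was 1.06, against -0.04 over all genes, with 41 of the 54 above 0, against 47.1% of all genes. Cldn1 was at 9.23 to 12.06, median 11.16, in B16-shVEGF, against 10.85, 4.36, 8.58, 12.18 and 5.09 in B16-WT. All 6 arrays of B16-shVEGF were above the lowest 3 of B16-WT, yet the highest array was of B16-WT, so the groups overlapped. The largest differences were those of Cldn1 (2.79 ± 1.09, limma adjusted p = 0.145), Cdh4 (2.43 ± 1.01, adjusted p = 0.150) and Itgbl1 (2.41 ± 0.91, adjusted p = 0.143), and the largest negative ones those of Itgb3bp (-1.06 ± 0.56), Pcdh17 (-0.82 ± 0.57) and Cdh19 (-0.62 ± 0.58). This comparison and the one with control share the B16-WT arrays. Without the 3 arrays the median difference was 0.24, with 39 of the 54 still above 0. There 0 of the 54 genes passed an unadjusted p under 0.05 (1.25% of all genes did), and Cldn1 differed by 0.47 ± 0.84.

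For B16-shTGFb against B16-WT at day 14, 9 genes were higher and 0 lower at an unadjusted limma p under 0.05 (7.65% of all genes were higher and 6.53% lower), with a median difference of 0.73 and 41 of the 54 above 0, against 45.6% of all genes. Cldn1 (2.24 ± 1.13), Pecam1 (2.12 ± 0.75) and Cldn4 (2.10 ± 1.06) had the largest positive differences, with limma adjusted p-values of 0.354, 0.328 and 0.354, and Itgb3bp (-1.06 ± 0.58), Cdh19 (-0.81 ± 0.60) and Cldn12 (-0.53 ± 0.37) the largest negative ones. Without the 3 arrays 0 adhesion genes passed an unadjusted p under 0.05 (0.243% of all genes did). The median was then 0.08, with 33 of the 54 above 0, and Cldn1 and Cldn4 turned to -0.08 ± 0.87 and -0.34 ± 0.64. At day 4, B16-shTGFb had 11 genes higher and 2 lower than B16-WT at an unadjusted p under 0.05 (4.25% of all genes were higher and 3.95% lower), led by Cldn4 (2.56 ± 1.08), Cldn10 (2.10 ± 0.84) and Itga11 (2.06 ± 0.97) and, on the negative side, Itgb3bp (-1.11 ± 0.59), Cdh19 (-1.09 ± 0.62) and Cldn34c1 (-1.07 ± 0.45), each with a limma adjusted p of 0.505. Cldn4 was at 10.10 to 12.22, median 11.65, in B16-shTGFb at day 4, against 10.08, 11.11, 9.78 and 4.56 in B16-WT at day 4. The B16-WT value of 4.56 is that of D4-4, and of the other 3 B16-WT arrays D4-2 lay inside the range of B16-shTGFb. The median difference over the 54 genes was 0.58 with all arrays (40 of the 54 above 0, against 45.1% of all genes). Without the 3 arrays it was 0.28, with 33 of the 54 above 0. There 2 adhesion genes were higher and 0 lower at an unadjusted p under 0.05 (1.65% of all genes passed). For B16-shVEGF against B16-WT at day 4, 4 genes were higher and 0 lower at an unadjusted p under 0.05 (1.71% of all genes were higher and 0.839% lower), with a median of 0.16 (36 of the 54 above 0, against 45.2% of all genes). Without the 3 arrays the median was 0.00, with 27 of the 54 above 0. There 3 adhesion genes were higher at an unadjusted p under 0.05 (0.708% of all genes passed). Its largest differences were those of Itga11 (1.73 ± 1.01), Vcam1 (1.40 ± 0.83) and Cdh15 (1.38 ± 0.39) at the top, and of Itgb3bp (-0.81 ± 0.62), Pcdh17 (-0.72 ± 0.63) and Cdh19 (-0.51 ± 0.64) at the bottom.

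**Figure D4:**
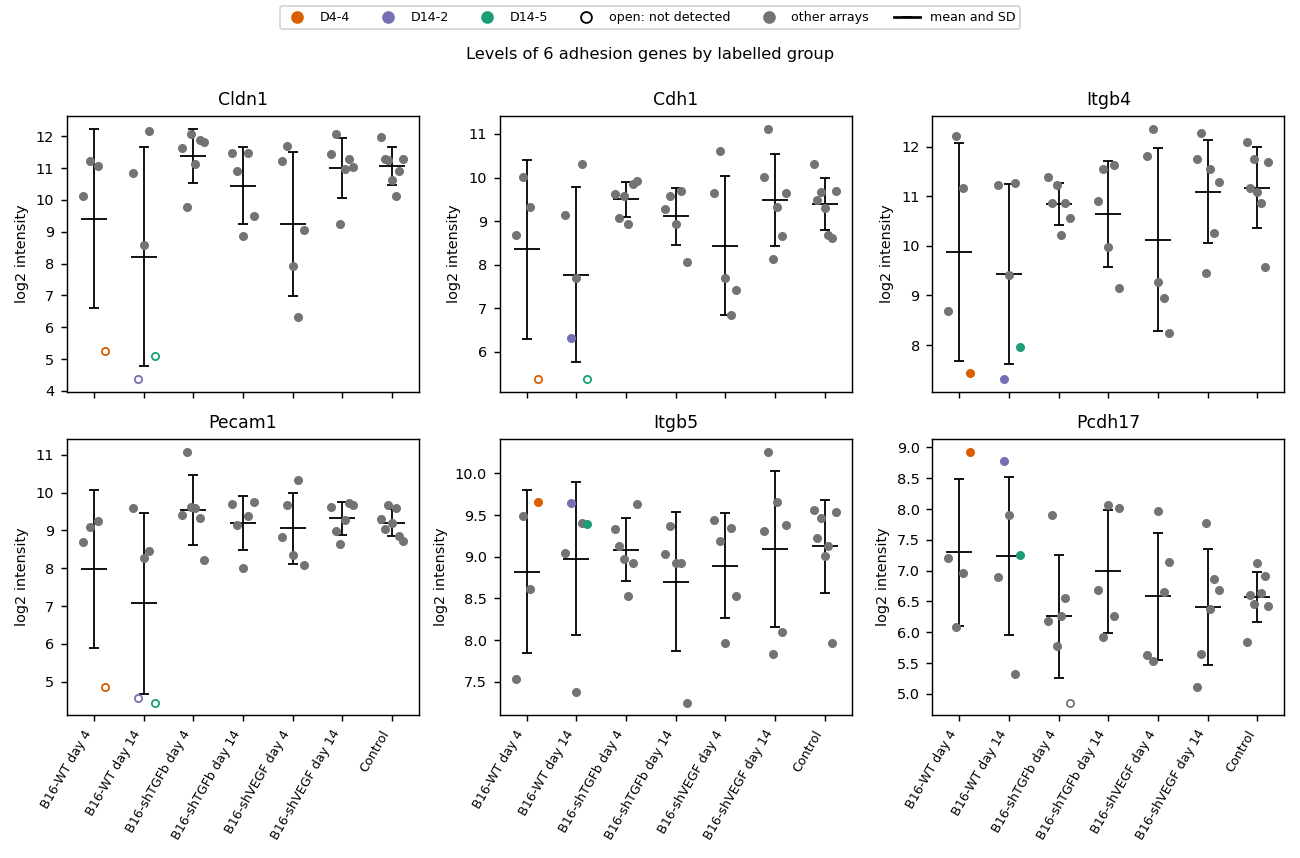
Log2 intensity (y axis) of Cldn1, Cdh1, Itgb4, Pecam1, Itgb5 and Pcdh17 on each array by labelled group (x axis), with the group mean and SD (black) and open points where not detected. D4-4, D14-2 and D14-5 (coloured) are the lowest points of the first 4 genes and lie among or above the other arrays for Itgb5 and Pcdh17.

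M-cadherin of muscle precursors differed most by p between labelled groups. Cdh15 was at 5.37, 6.46, 6.34, 7.08 and 6.5 in B16-shVEGF at day 4 and detected on all 5, against 4.58, 5.14, 5.02 and 5.13 in B16-WT at day 4, where 2 of 4 were detected. Every array of B16-shVEGF at day 4 was above every one of B16-WT at day 4. The difference of 1.38 ± 0.39 had an unadjusted limma p of 0.00109 and an adjusted p of 1.0. In control tissue Cdh15 was at 4.64 to 7.30 with a median of 5.05 and 4 of 7 arrays detected, and B16-shVEGF at day 4 differed from it by 0.95 ± 0.34 (adjusted p = 0.999). Itgav was at 4.53 to 5.37 in B16-shVEGF at day 14 with 1 of 6 arrays detected, against 5.08 to 5.96 in control tissue with 7 of 7 detected. Its difference of -0.56 ± 0.20 had a limma adjusted p of 1.0.

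Median differences of the hairpin lines from control tissue were near 0, over genes that differed in both directions. The medians over the 54 genes were -0.02 for B16-shTGFb at day 4, -0.11 for B16-shTGFb at day 14, -0.13 for B16-shVEGF at day 4 and 0.04 for B16-shVEGF at day 14. Counts of differences above 0 were 27 of the 54 above 0, against 45.2% of all genes, in B16-shTGFb at day 4 and 18 of the 54 above 0, against 43.4% of all genes, in B16-shTGFb at day 14. They were 22 of the 54 above 0, against 53.9% of all genes, in B16-shVEGF at day 4 and 33 of the 54 above 0, against 48.5% of all genes, in B16-shVEGF at day 14. At an unadjusted limma p under 0.05, Itgav was lower in B16-shTGFb at day 4 and in B16-shVEGF at day 14, Cdh15 was higher in B16-shVEGF at day 4, and no adhesion gene passed in B16-shTGFb at day 14. For all genes, in B16-shTGFb 1.81% of all genes were higher and 1.19% lower at day 4 and 0.425% higher and 0.839% lower at day 14, and in B16-shVEGF 0.617% were higher and 0.465% lower at day 4 and 0.131% higher and 0.091% lower at day 14. B16-shTGFb at day 4 had its largest differences in Cldn4 (1.31 ± 0.93), Cdh3 (1.02 ± 0.65), Vcam1 (1.01 ± 0.69), Itgb1 (-0.85 ± 0.63), Cdh13 (-0.74 ± 0.38) and Cldn23 (-0.71 ± 0.94). At day 14 that line had Vcam1 (0.57 ± 0.72), Icam2 (0.44 ± 0.51) and Itgal (0.42 ± 0.42) at the top and Itgbl1 (-1.06 ± 0.88), Jam2 (-1.02 ± 0.51) and Cdh4 (-1.0 ± 0.98) at the bottom. None of the intervals of these differences excluded 0. Hair follicle genes had higher means beside Cldn4 and Cdh3 in B16-shTGFb at day 4 than in control, with 6 of 6 measured above 0 (median 3.65) and 3 of them past an unadjusted p under 0.05. Arrays D4-T3, D4-T5, D4-T6 and D14-4, the 4 highest for Cdh3 and Cldn4, had the 4 highest hair follicle list means, at 12.76, 12.72, 12.66 and 12.96. Over groups that list mean had a median of 12.43 (5.58 to 12.76) in B16-shTGFb at day 4 and 6.14 (5.28 to 12.10) in control tissue, and its part in the levels of these genes was not tested. B16-shVEGF at day 4 had Cldn1 (-1.84 ± 1.05), Cldn23 (-1.78 ± 0.99) and Cdh4 (-1.63 ± 0.98) below control and, after Cdh15, Vcam1 (0.65 ± 0.72) and Icam2 (0.49 ± 0.51) above it. Keratinocyte genes were below control in 17 of 17 (median -2.05, 1 past an unadjusted p under 0.05) and desmosome genes in 10 of 10 (median -1.16, 0 past it) in that group, and their part was not tested. On day 14 the same line had Cldn4 (0.51 ± 0.93), Icam2 (0.34 ± 0.48) and Itgal (0.32 ± 0.40) above and, after Itgav, Itga6 (-0.38 ± 0.57) and Itgb1 (-0.32 ± 0.63) below.

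Day 14 was also set against day 4 within each line. In B16-WT the median difference was -0.28, with 12 of the 54 above 0, against 45.2% of all genes. There 0 adhesion genes passed an unadjusted limma p under 0.05 (0.243% of all genes were higher and 0.394% lower), and Itgb1 (0.40 ± 0.76), Cldn7 (0.34 ± 0.28) and Cldn12 (0.25 ± 0.39) were opposite in sign to Cldn1 (-1.20 ± 1.20), Cldn11 (-1.14 ± 0.86) and Cldn23 (-0.99 ± 1.13). Without the 3 arrays the median was -0.06, with 22 of the 54 above 0, and Cldn12 turned to -0.22 ± 0.40. In B16-shTGFb the median was -0.18 (14 of the 54 above 0, against 46.1% of all genes), with Itgb1 (1.26 ± 0.69), Pcdh17 (0.73 ± 0.57) and Itgav (0.53 ± 0.22) higher by mean at day 14 and Cdh3 (-1.07 ± 0.70), Cldn4 (-1.05 ± 1.01) and Itgb6 (-0.99 ± 0.64) lower by mean. Itgav alone passed an unadjusted p under 0.05 there (1.96% of all genes were higher and 2.94% lower). Itgb1 was at 8.65, 8.13, 8.56, 8.93 and 8.80 in B16-shTGFb at day 14, against 4.89 to 8.62 with a median of 7.56 at day 4, where D4-T6 was the low array. These levels are those of the brightest probe. The further probe of Itgb1, detected on all 38 arrays, had r of -0.48 with it. In B16-shVEGF the median was 0.16 (34 of the 54 above 0, against 46.2% of all genes), with Cdh4 (1.83 ± 1.01), Cldn1 (1.77 ± 1.09) and Cldn23 (1.57 ± 1.02) at the top and Cdh15 (-0.92 ± 0.35), Itgav (-0.43 ± 0.22) and Cldn34c1 (-0.40 ± 0.42) at the bottom, and Cdh15 alone passed an unadjusted p under 0.05 (0.354% of all genes were higher and 0.253% lower). The difference between days was compared between lines as well, with 32 of the 54 above 0, against 53.3% of all genes, for B16-shTGFb and 36 of the 54 above 0, against 50.6% of all genes, for B16-shVEGF. Relative to B16-WT it was most positive in B16-shTGFb for Icam2 (1.14 ± 0.79), Cdh13 (1.08 ± 0.62) and Itgb1 (0.86 ± 1.03) and most negative for Cdh3 (-0.78 ± 1.05), Itga11 (-0.69 ± 1.36) and Itgb6 (-0.59 ± 0.96), with Itgav alone past an unadjusted p under 0.05 and higher (0.546% of all genes were). Without the 3 arrays that comparison turned round, with 20 of the 54 above 0 and a median of -0.15 in place of 0.13. There 0 adhesion genes passed an unadjusted p under 0.05 (0.981% of all genes did). In B16-shVEGF the difference between days, relative to B16-WT, was most positive for Cldn1 (2.97 ± 1.62), Cldn23 (2.56 ± 1.53) and Cdh4 (2.33 ± 1.51) and most negative for Cdh15 (-0.67 ± 0.52), Cldn12 (-0.60 ± 0.53) and Cldn7 (-0.55 ± 0.37), with 0 adhesion genes past an unadjusted p under 0.05 (0.485% of all genes were higher and 0.526% lower). For that line 36 of the 54 were above 0 without the 3 arrays too, with a median of 0.13 in place of 0.41.

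Since groups explained little of the variance, each gene was correlated with the mean of 8 cell type marker lists over the 35 arrays, giving 432 pairs that share libraries and tissue composition. Shares at r of at least 0.5 are given for the adhesion genes and then for all genes outside each list. They were 29.6% and 14.7% for the keratinocyte list, 35.2% and 21.0% for fibroblasts, 14.8% and 7.9% for blood endothelium and 27.8% and 13.5% for skeletal muscle. For adipocytes they were 38.9% and 23.5%, for macrophages 18.5% and 12.1%, and for T cells 11.1% and 3.7%. For melanocytes they were 7.4% and 20.3%, so there the share of adhesion genes was the smaller. A negative r of at least 0.5 in size was found for 15 of the 54 with the melanocyte list (15.3% of all genes). With the other lists it was found for 1 to 8 of the 54 (3.1% to 26.1% of all genes). Cdh1 (r = 0.91, rho = 0.92), Cldn1 (r = 0.90, rho = 0.82) and Cldn23 (r = 0.87, rho = 0.86) led with the keratinocyte list. Each had a permutation p of 1e-05, the smallest that 100000 permutations can give, and a p adjusted over the 432 pairs of 7.08e-05. Without D4-V4 and D4-V5, the arrays farthest from the median, these r were 0.93, 0.87 and 0.85. Lists for stroma named other genes. Itgb5 (r = 0.81), Itgb4 (r = 0.75) and Pcdh20 (r = 0.75) led with the fibroblast list, with rho of 0.69, 0.60 and 0.68. Itgb5 kept its level on the 3 arrays, where the fibroblast list mean was 5.69 to 5.87, and over all 38 arrays its r with that list was 0.08. Itgam (r = 0.77, rho = 0.73), Cldn5 (r = 0.75, rho = 0.70) and Cldn15 (r = 0.69, rho = 0.66) led with the blood endothelial list, and their r without D4-T2 and D4-V4 were 0.77, 0.66 and 0.54. Each of these had a permutation p of 1e-05 for r.

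Muscle, fat and leukocyte lists had their own leading genes. Itgb1bp2, the muscle protein melusin, had the highest r of all 432 pairs with the skeletal muscle list (r = 0.92, rho = 0.91, 0.90 without D4-V5 and D14-T5), ahead of Itga7 (r = 0.79, rho = 0.73) and Cdh13 (r = 0.75, rho = 0.75). Itgb4 (r = 0.81, rho = 0.70), Jam2 (r = 0.81, rho = 0.78) and Pcdh20 (r = 0.80, rho = 0.75) led with the adipocyte list. Marker lists were correlated among themselves, the adipocyte and fibroblast lists at r = 0.83, so a gene could follow several. Itgb7 (r = 0.73, rho = 0.76), Jaml (r = 0.72, rho = 0.72) and Itgam (r = 0.70, rho = 0.66) led with the macrophage list. Itgal (r = 0.86, rho = 0.67), Vcam1 (r = 0.84, rho = 0.68) and Icam2 (r = 0.72, rho = 0.70) led with the T cell list, where D4-T2 and D4-V4 were the farthest arrays and leaving them out gave r of 0.67, 0.69 and 0.71. Icam1, at r = 0.54 with that list, was at 0.16 without these arrays, so its relation rested on them. All the pairs named here had a permutation p of 1e-05 for r, apart from Icam1 (p = 0.00275).

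The melanocyte list was read on 31 arrays, a choice made after its values were seen, because D4-T2, D4-V2, D14-V2 and CTRL-1 stood apart with list means of 6.14 to 6.39, against 7.96 to 12.00 on the others. On these 31 arrays Itga5 (r = 0.78, rho = 0.81), Itgb3bp (r = 0.77, rho = 0.80) and Pcdh17 (r = 0.69, rho = 0.75) had the highest r, with permutation p-values of 1e-05, 1e-05 and 6e-05 (adjusted p = 8.64e-05, 8.64e-05 and 0.000341 over 432 pairs). All of them were among the genes detected on the 3 arrays with little host tissue, as were 38.9% of the 54 genes and 75.7% of all genes tested. Itgb1bp1 (r = 0.66) and Cdh19 (r = 0.61), detected there too, came next. The lowest were Itgbl1 (r = -0.73) and Itgb5 (r = -0.71), of which Itgbl1 was undetected and Itgb5 detected on the 3 arrays. Itgb4 (r = -0.69), Cdh13 (r = -0.65), Cldnd1 (r = -0.64) and Pcdh7 (r = -0.61) were likewise detected on all 3 and had negative r. Vcam1, undetected on the 3, had a positive r of 0.44, and Icam2, detected on some of them, 0.55. Genes detected on the 3 arrays thus had r of either sign with this list. On deviations from the group means over 35 arrays, r was 0.90 for Cdh1 with the keratinocyte list and 0.81 for Itgb5 with the fibroblast list.

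**Figure D5:**
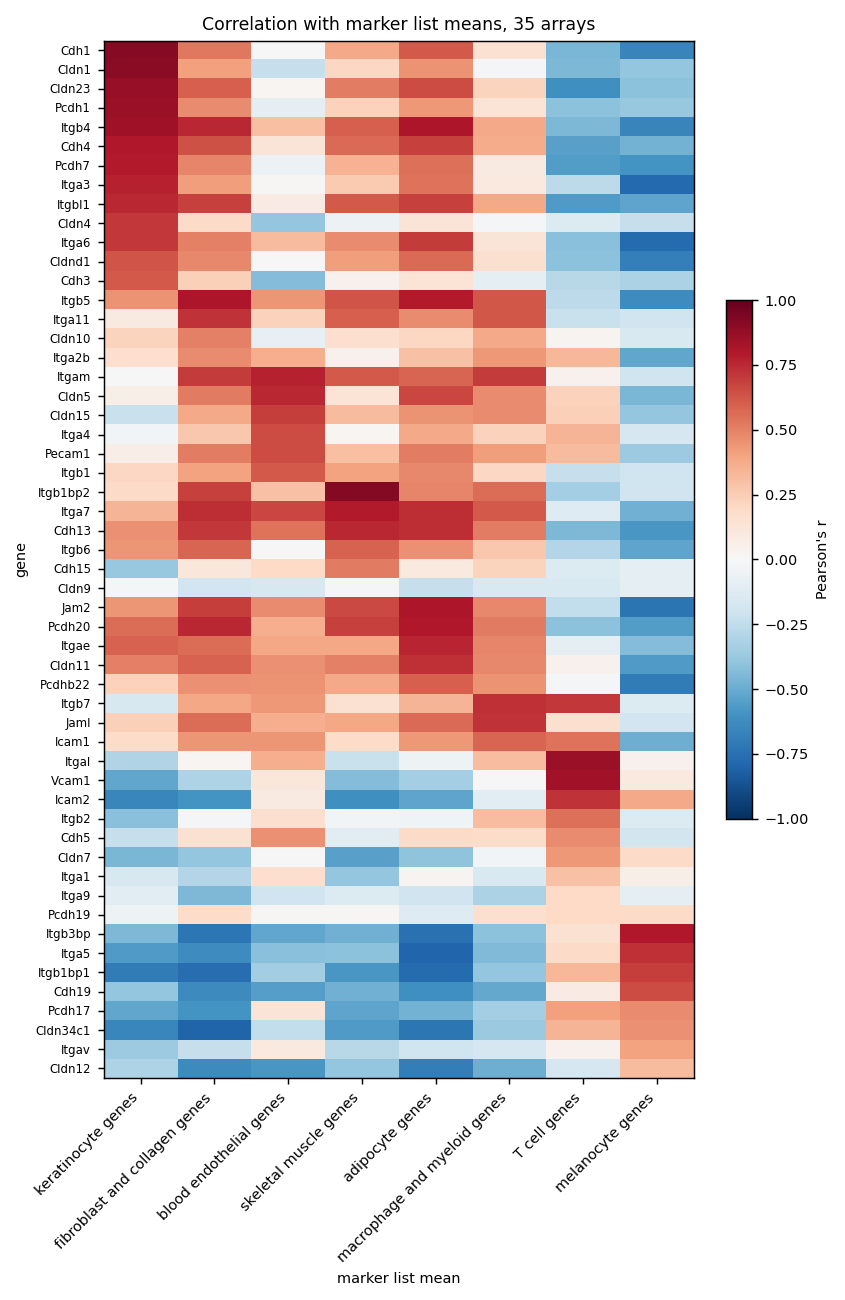
Pearson's r (colour) over 35 arrays between the level of each of the 54 adhesion genes (rows, grouped by the list with the highest r) and the mean of 8 marker lists (columns). Cdh1 with the keratinocyte list (0.91) and Itgb1bp2 with the skeletal muscle list (0.92) are the darkest red cells, and Itgb3bp, Itga5 and Itgb1bp1 near the foot are blue for the keratinocyte, fibroblast and adipocyte lists.

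Further probes mostly followed the brightest one. There were 24 further probes for 17 of the genes, and 19 had r of at least 0.8 with the brightest probe over 38 arrays. Itgb1 and Itgb1bp1 were the exceptions with r below 0, at -0.48 and -0.46. The levels of these genes, and the Itgb1 differences between groups and low single arrays given here, thus depend on the probe. Detection on the 3 arrays with little host tissue depended on the probe in several genes. The further probe of Pecam1 was detected on 1 of them, where the brightest was on none. For Itga6 and Itgae, whose brightest probes were detected on all 3, the further probes of Itga6 were detected on 1 and 0, and those of Itgae on 0, 0 and 3. Itgb3 and Cdh2 were not among the genes tested.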

How the data were processed

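Total RNA of 38 tissue samples was hybridised to Illumina mouse bead arrays. The deposited non-normalized table holds a signal intensity and a detection p-value per probe (45272 probes), and the authors deposited no statement of its background treatment in the sources used here. The deposited normalized table (16247 probes) holds log2 values, which matched, to within 5e-14, the log2 of the quantile-normalized raw signals of all probes. BeadStudio and limma are named in the submitters' processing notes, without versions.

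Signals were corrected with limma's nec (normal-exponential model, fitted from the detection p-values, offset 16), quantile-normalized on the log2 scale and kept where 4 or more arrays had a detection p under 0.05, which removed 0 named probes. Platform annotation gave 14836 probes 1 symbol, 5 several and 1406 none, and 14830 matched the RefSeq gene table by Entrez ID. The brightest probe stood for each of 9890 genes, and a symbol that also begins with these letters is not reported here. A limma model with 7 groups gave 15 comparisons and an F test with Benjamini-Hochberg adjustment over all genes. Comparisons that share control or B16-WT arrays are not independent. Precision is set by how many arrays a group has. Median raw signal per array was 105 to 155, and the highest correlation between 2 arrays was 0.9906.

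The members and gene lists were chosen with earlier results of these data known. Named with values were all genes detected on all 3 or on none of D4-4, D14-2 and D14-5 (in the second case with at least 30 of the other 35 detected), the 3 largest differences in each direction per comparison, a set of well-known receptors and junction genes, and the 3 genes with the highest r per marker list. No label says whether equal array numbers in the titles pair arrays, and the main fit did not pair them. Software was R 4.3.3, limma 3.58.1, Python 3.11.15, numpy 2.4.6, pandas 2.3.3 and scipy 1.17.1. Alternatives covered background correction, normalization, filter, probe choice, detection threshold, array weights, the samples in the fit, a replicate block and leaving arrays out.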

Additional observations from a re-analysis of the deposited data

Results flagged for a closer look

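Within groups of 4 to 7 arrays, 21 of 378 combinations of gene and group (5.56%) had a highest or lowest array whose gap to its nearest neighbour was large for the range of the group, where chance gives about 1 in 20. D4-4 accounted for 5 of them, with low values of Cldn10 (4.43), Icam1 (6.06), Jaml (4.37), Pcdh19 (4.40) and Pecam1 (4.87) in B16-WT at day 4. In the same group D4-1 was high for Icam2 (9.24). In B16-WT at day 14, D14-3 was low for Itga6 (4.95) and Itgb5 (7.38), and D14-1 was high for Itgae (9.56). D4-T2, the array with the highest T cell list mean, was high within B16-shTGFb at day 4 for Cdh5 (9.83), Icam1 (10.82) and Itga4 (7.10), and D4-T6 of that group was low for Itga7 (5.98). In B16-shTGFb at day 14, D14-T5 was low for Itgb5 (7.25) and Itgb7 (6.64). In B16-shVEGF, D4-V5 was low for the brightest probe of Itgb1 (4.68) at day 4 and D14-V2 high for Cdh15 (6.03) at day 14. Among control arrays, CTRL-6 was high for Cdh19 (8.07), Cldn34c1 (6.79) and Itga5 (9.90) and low for Itgb5 (7.96).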

How the results depend on the processing

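Without D4-4, D14-2 and D14-5, a choice known from earlier results, Cldn12 turned to -0.05 in B16-WT at day 14 against control, to -0.22 in B16-WT at day 14 against day 4 and to 0.12 in B16-shTGFb against B16-WT at day 14, where Cldn1 turned to -0.08 and Cldn4 to -0.34. The cause was not tested. With array quality weights, limma called 104 genes over the 7 groups, 102 in B16-shTGFb at day 14 against day 4, 778 in B16-shTGFb at day 4 against control and 855 in B16-shTGFb against B16-WT at day 4, where the unweighted fit called 0 in each. Cldn4 (1.65) and Cdh3 (1.40) then passed an adjusted p under 0.05 in B16-shTGFb at day 4 against control, and Cldn4 (1.90) did so against B16-WT. With these weights Itgb1 turned to -0.34 in B16-WT at day 14 against day 4, and Itgb6 to 0.14 in the shTGFb comparison of days. Leaving out 1 array at a time, the genes called were 0 to 5 in B16-shTGFb at day 4 against control and 0 to 1 in B16-shTGFb against B16-WT at day 14. They were 0 to 1627 in B16-shVEGF against B16-WT at day 14, the highest without D14-4, and 0 to 1436 in B16-WT at day 14 against control, the highest without D14-1, with up to 14 adhesion genes called in each. Signs also varied for Itgb1 (-0.32 to 0.86) and Cldn12 (-0.10 to 0.48) in B16-WT at day 14 against day 4, and for Itga11 (-1.43 to 0.27) and Itgb6 (-0.94 to 0.04) in the shTGFb comparison of days. The r of Itgb5 with the fibroblast list was 0.08 on all 38 arrays. With array number as a replicate block, 0 genes were called in each comparison and no call changed. Same-numbered arrays deviated with a median r of 0.081 over 102 pairs (-0.81 to 0.75), against -0.028 over the other 514. At a detection p under 0.01, 7 genes changed detection class on the 3 arrays, and counting any probe moved Pecam1 from none to some. The other alternatives that were run kept the direction and calls of the differences. A chip block was not run, since the column names give no chip. Genes near background, such as Itga4, Itgav and Cdh15, have levels limited by signal over background.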
